A study of Mus musculus with 3 samples.

Results

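Hox genes encode homeodomain transcription factors that stand in 4 chromosomal clusters (Hoxa, Hoxb, Hoxc and Hoxd), and their levels were set side by side in 2 stromal cell populations sorted from mouse bone marrow. Members were all probe sets annotated to exactly 1 symbol of the Hoxa, Hoxb, Hoxc or Hoxd series; 37 Hox genes qualified, each through 1 probe set, among 19938 genes measured. Hoxb8 shares its probe set with Hoxb7 and was left out. The first population, CXCL12-abundant reticular (CAR) cells, came from Cxcl12-GFP knock-in mice and was run on 2 arrays from 2 mice. The second was a single pool from 3 mice with the genotype Prx1-Cre; Rosa26Ai9/+; Cxcl12gfp/+, gated as PDGFRa+ Sca+ CD45- lineage- cells and called PaS. Both populations were taken from tibia, femur and pelvis at baseline, and both carry a GFP allele at Cxcl12. Prx1-Cre is a driver of limb mesenchyme, and the Cre and Ai9 reporter alleles are listed only for the PaS donors, so that genotype and cell type cannot be told apart. The labels state neither ages nor whether the CAR donors carried 1 or 2 copies of the knock-in.

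In the embryo, Hox genes are switched on in the order in which they lie along each cluster: genes with low paralog numbers act toward the head, those with high numbers act toward the tail and, in Hoxa and Hoxd, toward the end of the limb. Paralogs are genes of the same number in different clusters, which arose by cluster duplication and have overlapping roles. Adult stromal and fibroblast cells keep part of the Hox pattern of the body site they come from, and some Hoxa and Hoxb genes are also active in blood progenitors.

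Values are log2 signal intensities, a level for each probe set. Probe sets differ in how brightly they bind, so levels are compared between arrays and not between genes. The median over all genes was 3.74 and 3.75 for CAR cells and 3.77 for the PaS pool. The PaS pool had the narrower range at both ends. Its 5th percentile was 2.40, against 1.87 and 1.69 on the CAR arrays, and its 95th was 6.16, against 6.69 and 6.93. The part of this range in the higher and lower calls below was not tested. Cxcl12 was higher in CAR cells (10.94 and 11.11 against 7.76). Pdgfra, whose product was gated for in the PaS sort, was higher in CAR cells too (7.52 and 7.97 against 4.33), whereas Ptprc, which encodes CD45, was lower (5.11 and 5.01 against 8.27). Pdgfra and Ptprc run against the PaS label, and the array is called the array labelled PaS from here on. Of 10 measured general blood cell markers 9 were lower in CAR cells and 0 higher, with a summed intensity of 347.0 and 428 on the CAR arrays and 2461 on the array labelled PaS. None of the 10 is listed at 0. Myeloid markers (8 of 11), lymphoid markers (5 of 8), hematopoietic progenitor markers (2 of 7) and endothelial markers (4 of 8) likewise passed the test as lower, and 0 as higher. Mesenchymal stroma markers moved the other way, with 6 of 10 higher and 1 lower and sums of 5021, 5794 and 777. The 1 lower marker was Thy1, present on Sca-1+ stroma and on T cells, at 3.56 and 3.69 against 7.67. The collagen genes Col1a1 and Col3a1 were also below the array labelled PaS on both CAR arrays, with differences of −0.82 and −1.09 that did not pass. In these bulk samples, fewer cells of a type and less RNA per cell cannot be told apart.

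Of the 37 Hox genes, 5 were higher in CAR cells and 1 was lower. Hoxa5, Hoxa6, Hoxa9, Hoxc6 and Hoxc10 rose by 2.65-fold to 4.54-fold, and Hoxd11 was 3.92-fold lower. The other 31 did not pass the test (limma, Benjamini-Hochberg adjusted p under 0.05 over all 19938 genes, two-sided). Over all genes 8.56% were higher by this rule, 6.42% lower and 15.0% called either way, so that 6 of 37 Hox genes is a share near the background. By size alone, 6 Hox genes were at least 2-fold higher in both CAR arrays, where 10.9% of all genes were, and 1 was at least 2-fold lower, where 8.92% were. The sixth was Hoxa7. The median log2 difference of the 37 was 0.23, against −0.10 over all genes; with only CAR array 1 it was 0.13 and with only CAR array 2 it was 0.17.

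Both CAR arrays lay above the array labelled PaS for 20 of the 37 Hox genes (37.4% of all genes did so), both lay below it for 12 (46.8% of all genes), and it lay between them for 5. A value above the array's own median does not show expression, because no detection calls were used. With that limit, 8 Hox genes lay above the median on all 3 arrays (Hoxa4, Hoxa10, Hoxb1, Hoxb3, Hoxb6, Hoxb7, Hoxc5 and Hoxc8) and 13 lay below it on all 3. Of all 19938 genes, 7469 lay above it on all 3 and 7471 below. A further 10 lay above it on both CAR arrays and below it on the array labelled PaS: Hoxa3, Hoxa5, Hoxa6, Hoxa7, Hoxa9, Hoxb4, Hoxc6, Hoxc9, Hoxc10 and Hoxd8. Over all genes 1633 did so. The converse held for Hoxb2, Hoxd10 and Hoxd11, and for 1631 of all 19938 genes, which is a share near that of the Hox genes.

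**Figure D1:**
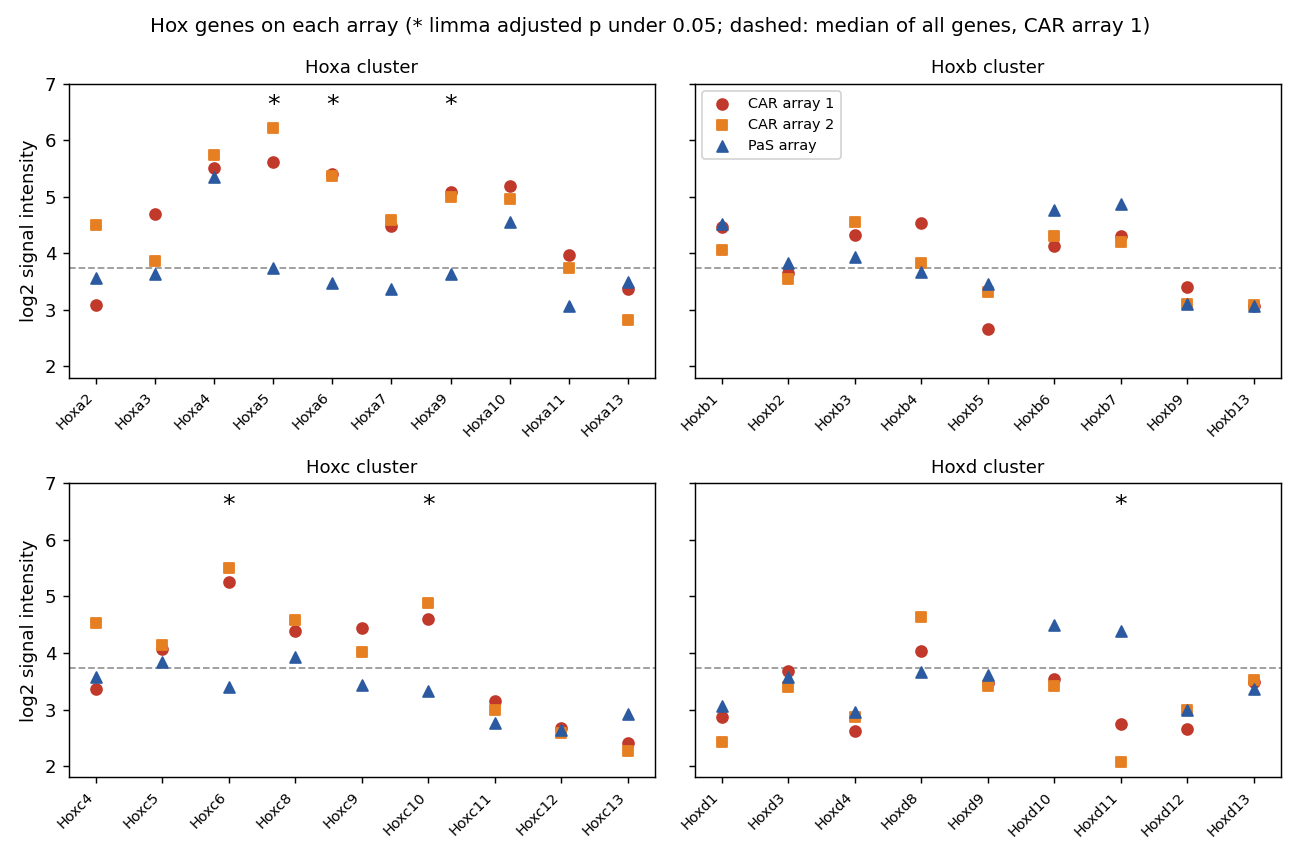
Log2 signal intensity (vertical axis) of the 37 Hox genes, by cluster and in order of paralog number (horizontal axis), with 1 point for each array; no error bars are drawn. Stars mark limma adjusted p under 0.05, and the dashed line is the median of all genes on CAR array 1, 3.74. The CAR points stand clear above the blue triangles from Hoxa5 to Hoxa9 and at Hoxc6 and Hoxc10, and below them at Hoxd10 and Hoxd11.

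The number of calls depended on the setting. With a pseudocount of 16 added before log2, which compresses low values, 0 of 37 Hox genes and 0 of all 19938 genes passed in limma, although 9 Hox genes and 5785 genes had an unadjusted p under 0.05; the adjusted p of the 6 Hox calls then ran from 0.0601 for Hoxa6 to 0.109 for Hoxa5. After quantile normalization the split was 7 higher and 4 lower, where 13.2% of all genes were higher and 14.2% lower, with Hoxa7 and Hoxa11 added among the higher genes and Hoxb6, Hoxb7 and Hoxd10 among the lower.

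The Hoxa cluster held most of the genes that were higher in CAR cells. Of its 10 measured genes 3 rose, 0 fell and 8 had both CAR arrays above the array labelled PaS. Its median difference was 0.72 (0.98 with only CAR array 1 and 0.81 with only CAR array 2). Hoxa5, a gene of lung, neck and rib patterning, stood at 5.62 and 6.21 on the CAR arrays and at 3.73 on the array labelled PaS. Both CAR values were thus more than 1 log2 unit above the other array, and the difference was 2.18 ± 0.36 (SE; limma adjusted p = 0.0264). Hoxa6, its neighbour, was closely matched between the CAR arrays, at 5.40 and 5.37 against 3.48, a difference of 1.90 ± 0.28 (adjusted p = 0.0223). Hoxa9, a regulator of blood progenitors and of limb and trunk patterning, stood at 5.08 and 5.0 against 3.63, a 2.65-fold difference (adjusted p = 0.0370). Between them Hoxa7, a trunk patterning gene, stood at 4.48 and 4.58 against 3.37. Its difference of 1.16 did not pass (adjusted p = 0.0524). It passed after median centring (0.0305), after quantile normalization (0.0122) and with robust moderation (0.0394). Those settings also called more of all genes higher: 12.3%, 13.2% and 10.9%, against 8.56% with the values as reported. Hoxa7 also passed when only the brighter genes, from the median level up, were kept (0.0422). That filter uses the mean of the 3 arrays, and Hoxa7 was above the array median on the CAR arrays only. The filter thus favours Hoxa7, and the pass under it is no added support. The 4 genes Hoxa5, Hoxa6, Hoxa7 and Hoxa9 follow each other along the cluster, which has no Hoxa8. Blood cell markers were higher on the array labelled PaS, whereas 6 of 10 mesenchymal stroma markers were higher in CAR cells and 1 lower. The part of either in these differences was not tested.

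The flanks of that run differed less. Hoxa4, which lies next to Hoxa5, stood at 5.52 and 5.73 against 5.35, a difference of 0.28 (adjusted p = 0.542). By rank within each array, Hoxa4 was lower on both CAR arrays (percentiles 85.5 and 85.3 against 88.8). Hoxa10, a gene of the upper leg and of the uterus, stood at 5.19 and 4.96 against 4.56. Hoxa11, needed for the bones of the forearm and lower leg, stood at 3.97 and 3.73 against 3.06. Neither passed (adjusted p = 0.264 and 0.126), although both CAR arrays were above the array labelled PaS in each case. By rank within each array, the array labelled PaS lay between the CAR arrays for Hoxa10 (percentiles 80.9 and 74.2 against 75.9). For Hoxa11 it stayed below them (56.1 and 49.6 against 21.1). Hoxa3 did not pass either, at 4.70 and 3.87 against 3.64. Hoxa2 had the largest spread between CAR arrays of any Hox gene, 3.09 and 4.51 (SD 1.01), with 3.56 on the array labelled PaS between them. Hoxa13, a gene of the hand, foot and hindgut, was the exception in the cluster in that both CAR arrays, at 3.37 and 2.83, lay below the array labelled PaS at 3.50.

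Promoter windows were available from RefSeq (GRCm38.p6) for 21 of the 37 Hox genes, and the 250 bases before the start are shown for the 4 genes past the test that have one, since these are the genes whose levels differed. For Hoxd11, which has 2 starts, the upstream one is shown. All are written 5′ to 3′ in the direction of transcription, with matches to the searched motifs in capitals. Hoxa5 (chr6:52204588-52204837, minus strand):
Hoxa5: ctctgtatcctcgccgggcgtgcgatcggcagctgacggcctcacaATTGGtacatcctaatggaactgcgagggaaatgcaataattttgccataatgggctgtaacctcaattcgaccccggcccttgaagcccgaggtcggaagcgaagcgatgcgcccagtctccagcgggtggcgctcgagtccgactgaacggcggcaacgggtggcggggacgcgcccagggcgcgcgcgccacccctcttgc
Hoxa6 (chr6:52208673-52208922, minus strand):
Hoxa6: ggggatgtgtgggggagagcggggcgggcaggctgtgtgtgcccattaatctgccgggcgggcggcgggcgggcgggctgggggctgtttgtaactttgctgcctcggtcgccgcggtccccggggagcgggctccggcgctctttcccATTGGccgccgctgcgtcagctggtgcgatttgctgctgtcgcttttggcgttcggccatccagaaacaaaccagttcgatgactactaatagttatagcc
Hoxa9 (chr6:52227371-52227620, minus strand):
Hoxa9: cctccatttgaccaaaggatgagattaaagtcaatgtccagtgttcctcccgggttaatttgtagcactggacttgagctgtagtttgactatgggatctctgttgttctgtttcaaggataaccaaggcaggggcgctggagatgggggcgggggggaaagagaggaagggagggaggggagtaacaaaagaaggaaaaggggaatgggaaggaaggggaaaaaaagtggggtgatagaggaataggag
Hoxd11 (chr2:74679308-74679557, plus strand):
Hoxd11: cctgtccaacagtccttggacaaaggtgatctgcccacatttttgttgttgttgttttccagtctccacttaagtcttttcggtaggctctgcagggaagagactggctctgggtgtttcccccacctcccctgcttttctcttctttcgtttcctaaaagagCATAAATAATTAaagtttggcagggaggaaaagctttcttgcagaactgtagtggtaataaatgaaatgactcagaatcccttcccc
Each window was searched on both strands for TATAAA (the TATA box), CCAAT (the CCAAT box), TTTATG (caudal-type factors), TGATTNAT (joint Pbx and Hox binding), TGACAG (Meis and Pknox factors) and TAATTA (a core that many homeodomains bind). The windows of Hoxa5 and Hoxa6 each held 1 CCAAT match, on the reverse strand, 204 and 101 bases before the start. That motif was in 33.8% of all 32851 windows and in 13 of the 23 Hox windows. The Hoxd11 window held TTTATG on the reverse strand, 87 bases before the start, and directly after it TAATTA, which reads the same on both strands. Over all windows, 10.8% held TTTATG and 4.84% held TAATTA. None of the searched letters occurred in the Hoxa9 window. TATAAA, TGATTNAT and TGACAG, found in 12.4%, 2.82% and 15.9% of all windows, were in none of the 4. A match describes the letters only. GC content was 63.6% for Hoxa5, 65.2% for Hoxa6, 49.6% for Hoxa9 and 44.8% for Hoxd11.

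In the Hoxc cluster, 2 of 9 measured genes rose, Hoxc6 and Hoxc10, and 0 fell, with a median difference of 0.37 (0.39 with only CAR array 1 and 0.57 with only CAR array 2). Hoxc6, a gene of the thoracic region and of the forelimb level, stood at 5.26 and 5.50 on the CAR arrays and at 3.41 on the array labelled PaS. The difference was 1.97 ± 0.29 (SE; limma adjusted p = 0.0227), a 3.93-fold higher level. Hoxc10, a gene of the lumbar region and the hindlimb, stood at 4.60 and 4.88 against 3.32, a 2.66-fold difference (adjusted p = 0.0408). Hoxc8 and Hoxc9, which lie between them, did not pass: Hoxc8 stood at 4.39 and 4.59 against 3.93 and Hoxc9 at 4.44 and 4.01 against 3.44. In both, each CAR array was above the array labelled PaS. Hoxc5, next to Hoxc6, stood at 4.08 and 4.15 against 3.84. The CAR arrays disagreed for Hoxc4, at 3.36 and 4.53, with 3.57 between them. At the posterior end, Hoxc11, Hoxc12 and Hoxc13 lay below the median on all arrays, with differences of 0.31, 0.01 and −0.58.

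The Hoxd cluster held the only Hox gene that was lower in CAR cells by limma's test. Hoxd11, which acts with Hoxa11 in the forearm and lower leg, stood at 2.75 and 2.08 on the CAR arrays and at 4.39 on the array labelled PaS. The difference was −1.97 ± 0.38 (SE; adjusted p = 0.0346). Both CAR values lay below the array median, and the third lay at the 71.4th percentile of its array. The low end of the values differed between arrays, with a 5th percentile of 1.87 and 1.69 on the CAR arrays and 2.40 on the array labelled PaS, so the size of a fold from a dim level is uncertain. Its neighbour Hoxd10, a gene of the hindlimb and of lumbar motor neurons, showed the same order at 3.54 and 3.42 against 4.50. The difference of −1.02 did not pass (adjusted p = 0.0694) but did after quantile normalization (0.0127). The genes on either side differed by −0.16 each and did not pass: Hoxd9 stood at 3.47 and 3.42 against 3.61, and Hoxd12 at 2.66 and 3.0 against 2.99. Hoxd13, the gene of the digits, stood at 3.50 and 3.53 against 3.37. Hoxd8, at 4.04 and 4.63 against 3.67, was the highest difference of the cluster at 0.66 and did not pass (adjusted p = 0.249). Hoxd1, Hoxd3 and Hoxd4 had differences of −0.43, −0.03 and −0.21. The median of the 9 genes was −0.16 and turned to 0.11 after quantile normalization.

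No gene of the Hoxb cluster passed the test in either direction: of 9 measured genes 0 were called by limma (0 also at an unadjusted p under 0.05), and differences ran from −0.62 to 0.51. Hoxb7 and Hoxb6, neighbours that act in trunk patterning, were lower on both CAR arrays. Hoxb7 stood at 4.31 and 4.19 against 4.87 (adjusted p = 0.185) and Hoxb6 at 4.13 and 4.30 against 4.77 (adjusted p = 0.229). Both were called lower after quantile normalization, with differences of −1.02 and −0.95 (adjusted p = 0.0270 and 0.0323). Hoxb5 stood at 2.66 and 3.32 against 3.45. Hoxb3 and Hoxb4, which support blood stem cell growth, lay on the other side, at 4.32 and 4.55 against 3.94 and at 4.53 and 3.84 against 3.67. Hoxb1, Hoxb2, Hoxb9 and Hoxb13 differed by 0.26 or less in size. The cluster median was −0.23, and −0.05 with only CAR array 1 or −0.13 with only CAR array 2.

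**Figure D2:**
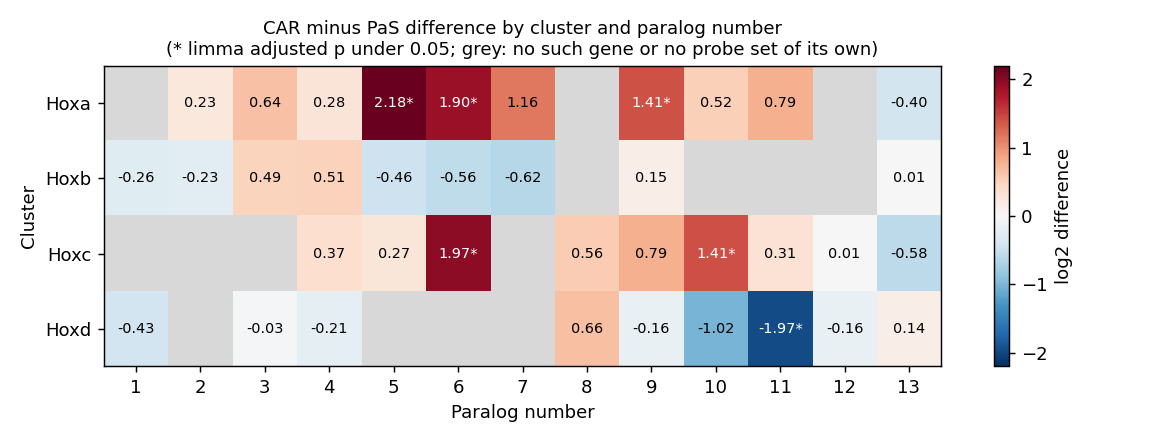
Log2 difference, CAR minus the array labelled PaS, for each Hox gene, with clusters as rows and paralog numbers as columns; red is higher in CAR cells, blue lower, and grey has no value. Stars mark limma adjusted p under 0.05. The row of Hoxa is red from 2 to 11, Hoxb is pale, Hoxc peaks at 6 and 10 (1.97 and 1.41), and Hoxd is blue at 10 and 11 (−1.02 and −1.97).

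Read by paralog number, genes of the same number often took different signs. Among paralogs 1 to 4, 0 of 11 genes passed in limma (0 also at an unadjusted p under 0.05), and differences ran from −0.43 to 0.64; their median of 0.23 was −0.05 with only CAR array 1. Among paralogs 5 to 8, 3 of 10 rose, all in Hoxa and Hoxc, with a median of 0.61. Among paralogs 9 to 13, 2 of 16 rose and 1 fell, with a median of 0.08 (0.09 with only CAR array 1, 0.01 with only CAR array 2, and 0.37 after quantile normalization). In paralog 5, Hoxa5 differed by 2.18, Hoxc5 by 0.27 and Hoxb5 by −0.46. In paralog 6, Hoxa6 and Hoxc6 differed by 1.90 and 1.97 and Hoxb6 by −0.56. In paralog 10, the differences were 0.52 for Hoxa10, 1.41 for Hoxc10 and −1.02 for Hoxd10. In paralog 11, they were 0.79 for Hoxa11, 0.31 for Hoxc11 and −1.97 for Hoxd11. Paralogs 12 and 13 had 0 limma calls among 6 genes (0 also at an unadjusted p under 0.05), which all lay below the median of every array. Whether the differences of paralogs themselves differ was not tested.

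Hox proteins bind DNA with cofactors of the TALE homeodomain class, the Pbx, Meis and Pknox proteins. Of 10 measured TALE genes 4 were higher in CAR cells by limma's test and 0 lower, with a median of 0.66. Over all genes 8.56% were higher and 6.42% lower, with a median of −0.10. When only genes at or above the median level were fitted, 20.7% of them were higher, with a median of 0.37. Meis2, at 6.39 and 5.50 against 3.21, was 6.67-fold higher (adjusted p = 0.0256). Pknox2, at 5.87 and 5.81 against 3.64, was 4.59-fold higher (adjusted p = 0.0180). Tgif2, a TALE repressor, stood at 5.38 and 5.32 against 3.41 (adjusted p = 0.0218). Meis3, at 5.70 and 5.98 against 4.57, was close to the threshold (adjusted p = 0.0491) and missed it after quantile normalization (0.0516) and with an intensity trend in the variance (0.0598). Meis1, the partner of Hoxa9 in blood progenitors, stood at 4.28 and 4.16 against 3.54 (adjusted p = 0.158), which did not pass. Pbx2, Pbx3 and Pbx4 did not pass, with differences of 0.63, 0.31 and −0.46.

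Other factors of limb and axial patterning were mixed: of 34 measured 5 were higher in CAR cells and 2 lower by the same test, with a median of 0.05. These calls were 14.7% and 5.88% of the list, beside 8.56% and 6.42% of all genes, so the lower share was near the background. Dlx5, a factor of the limb bud and of osteoblasts, was 8.60-fold higher (7.17 and 7.68 against 4.32). Prrx1, the gene whose enhancer drives Prx1-Cre, was 6.35-fold higher (7.76 and 8.06 against 5.24). Gli3, the hedgehog effector that sets digit number, was 5.76-fold higher (6.46 and 6.38 against 3.89), and Tbx15, a factor of limb and shoulder skeleton, 4.93-fold (5.25 and 5.42 against 3.03). The fifth, Shox2, a factor of the upper limb bones, stood at 4.60 and 4.57 against 2.98 and was named after its values were seen. Lower in CAR cells were Meox2, a mesodermal homeobox gene (2.58 and 2.68 against 4.95), and Prrx2, the paralog of Prrx1 (3.49 and 3.43 against 4.94). Adjusted p lay between 0.0140 and 0.0339 for these 7. The genes that separate forelimb from hindlimb, Tbx5 on one side and Tbx4 and Pitx1 on the other, differed by −0.07, −0.36 and −0.39, and none of the 3 passed. Evx1 and Evx2, which adjoin the Hoxa and Hoxd clusters, differed by 0.35 and −0.34 and did not pass.

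Chromatin regulators hold Hox clusters silent (Polycomb) or active (Trithorax). Of 17 measured Polycomb genes 1 was higher in CAR cells and 1 lower, no larger a share than the 8.56% and 6.42% of all genes. Their median of 0.77 stands beside −0.10 over all genes and 0.37 over genes at or above the median level. Pcgf2, also called Mel18, stood at 5.96 and 5.91 against 3.96, a 3.93-fold difference (adjusted p = 0.0212). Eed, the subunit that reads the Polycomb mark, was lower at 3.92 and 4.19 against 5.78 (adjusted p = 0.0284), a call lost with the mean of its probe sets (difference −0.95, adjusted p = 0.0789). Of 12 Trithorax group and demethylase genes 3 were higher and 0 lower, with a median of 1.0. Mllt3, a partner in MLL fusions, stood at 5.51 and 5.61 against 3.91 (adjusted p = 0.0278). Kmt2d, an enhancer methyltransferase, stood at 6.78 and 6.99 against 5.39 (adjusted p = 0.0352). Kmt2a, the MLL methyltransferase that keeps Hox genes active, stood at 7.34 and 7.06 against 5.74, a difference of 1.46 (adjusted p = 0.0387) that was 0.85 and did not pass after quantile normalization (0.0754). Among 16 genes of upstream signals 2 were higher and 0 lower. Gdf11, a ligand that sets the trunk to tail transition of Hox expression, stood at 4.79 and 5.14 against 2.71 (adjusted p = 0.0200). Aldh1a2, which makes retinoic acid, an inducer of anterior Hox genes, stood at 6.66 and 7.0 against 4.59 (adjusted p = 0.0200). The caudal genes Cdx1, Cdx2 and Cdx4 did not pass, with differences of −0.50, −0.27 and −1.30.

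**Figure D3:**
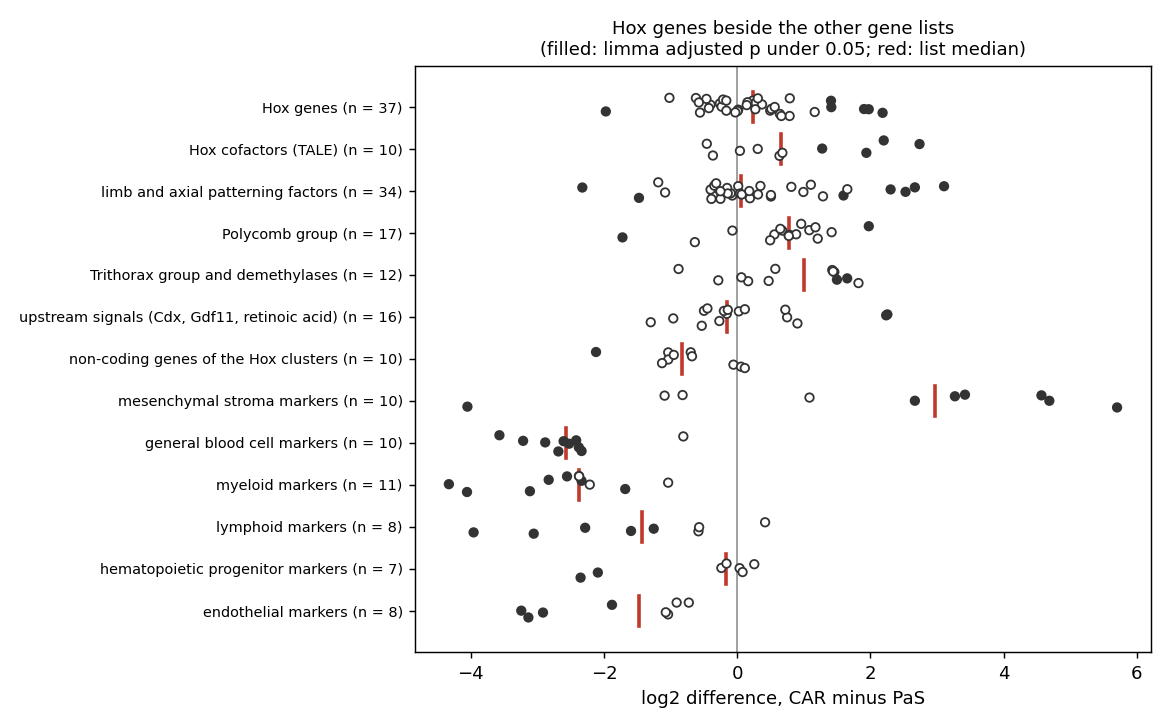
Log2 difference, CAR minus the array labelled PaS (horizontal axis), for the 37 Hox genes, 6 lists of related genes and 6 lists of cell type markers; each point is a gene, filled where limma's adjusted p is under 0.05, the red bar is the list's median, and vertical scatter within a list has no meaning. The Hox genes spread on both sides of 0 around a median of 0.23, while the general blood cell markers all lie below 0 around −2.56.

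Non-coding genes of the Hox clusters were mostly dimmer on the CAR arrays: of 10 measured, 8 had both CAR arrays below the array labelled PaS (46.8% of all genes did so), 1 passed as lower, near the 6.42% of all genes, and 0 passed as higher. The low end of all values was likewise lower on the CAR arrays, with the 5th percentiles of 1.87 and 1.69 against 2.40; its part in these differences was not tested. The microRNA genes lie between Hox genes and target Hox messengers in turn. The 5′ arms of the miR-10 and miR-196 families are shown from RefSeq, with the seed, bases 2 to 8, in capitals, because Mir10a was the gene that passed:
miR-10a-5p: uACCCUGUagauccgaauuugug
miR-10b-5p: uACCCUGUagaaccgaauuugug
miR-196a-5p: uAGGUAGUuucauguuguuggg
miR-196b-5p: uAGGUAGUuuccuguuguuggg
The miR-10 forms share the seed ACCCUGU and the miR-196 forms the seed AGGUAGU. The probe sets are annotated to the hairpin genes, so the values do not measure the mature forms. Mir10a, next to Hoxb4, stood at 1.63 and 1.19 against 3.53, a difference of −2.12 (adjusted p = 0.0236). Its CAR values lay below the 5th percentile of their arrays and the third lay below the median, so the call rests on dim values throughout. Mir10b, next to Hoxd4, stood at 1.47 and 1.06 against 2.30 (adjusted p = 0.0859), which did not pass. Of the miR-196 genes, Mir196a-1 in Hoxb differed by −1.13, Mir196b in Hoxa by −0.68 and Mir196a-2 in Hoxc by 0.11, none past the threshold. Hottip, the RNA of the posterior end of Hoxa, stood at 2.54 and 2.50 against 2.58.

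**Figure D4:**
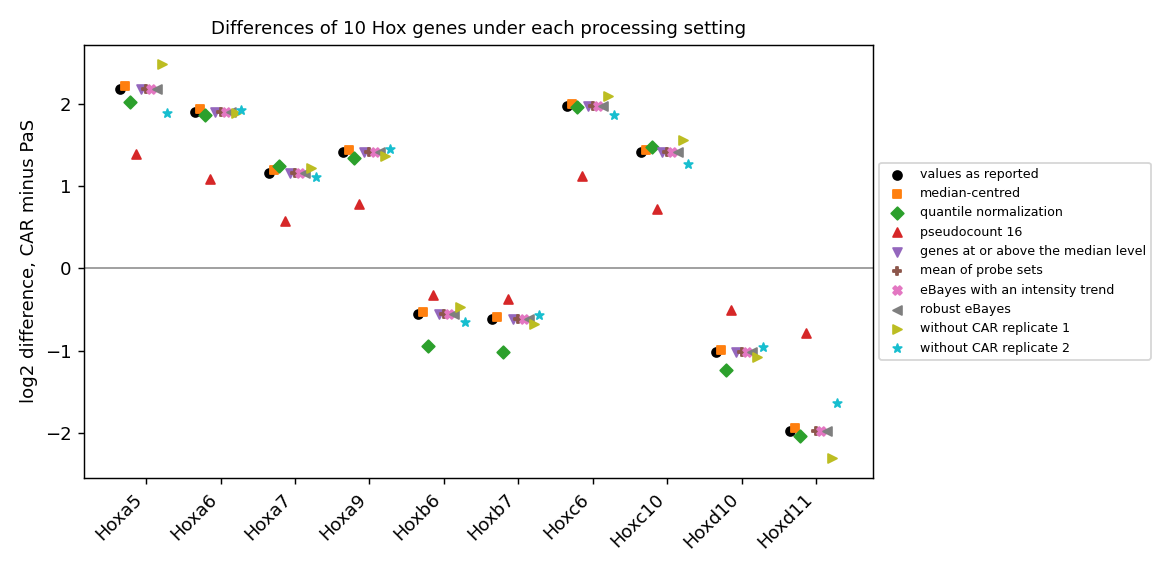
Log2 difference, CAR minus the array labelled PaS (vertical axis), of 10 Hox genes (horizontal axis) as reported and under each alternative setting, with 1 symbol for each setting; no error bars are drawn. Hoxa5, Hoxa6, Hoxa7, Hoxa9, Hoxc6 and Hoxc10 stay above 0 and Hoxb6, Hoxb7, Hoxd10 and Hoxd11 below 0 in every setting that gave a value, with the smallest sizes at a pseudocount of 16. The 10 genes were picked for their differences, so their kept signs were close to fixed in advance.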

How the data were processed

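Transcripts were measured on 3 Affymetrix arrays of 1 colour each, with amplified, biotin-labelled cDNA of sorted cells, 2 labelled CAR and 1 labelled PaS. The deposited values are signal intensities on a linear scale, made by the authors with Affymetrix Expression Console and RMA, per the submitters' processing notes; versions and build: not given in the sources used here. Log2 was taken with no pseudocount. Of 35556 probe sets 21789 carried 1 symbol, 1621 several and 12146 were unnamed here; symbols were updated by gene ID (21698 matched), and the probe set with the highest mean represented each of 19938 genes. CAR and PaS were compared with limma 3.58.1 in R 4.3.3 (lmFit, eBayes, no covariate), checked on simulated data. The fit has 1 residual degree of freedom, moderated with 4.20 prior degrees around an SD of 0.25, so that only the CAR arrays inform the spread, which is carried over to the PaS array. The number of arrays limits the precision. Alternatives were centring, quantile normalization, a pseudocount of 16, a filter on genes below the median level, averaged probe sets, an intensity trend, robust moderation, other folds and each CAR array left out. Named are Hox genes past the threshold, at least 2-fold apart or with the 2 largest differences of a cluster, their paralogs and neighbours, up to 4 genes past the threshold in each direction of each list, and 4 genes of the sorts. The members and lists were chosen with earlier results of these data known. Thy1, Col1a1, Col3a1, Shox2, Meis1, Pbx, Cdx, Tbx4, Tbx5, Pitx1, Evx, Hottip and microRNA genes below the threshold were named after their values were seen.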

Additional observations from a re-analysis of the deposited data

How the results depend on the processing

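The 10 Hox genes past the threshold, at least 2-fold apart or with the 2 largest differences of a cluster kept their direction under each setting that gave a value. The same held for 21 other genes, picked as past the threshold or as genes of the sorts. Such picks have large differences, so this outcome was close to fixed in advance. Outside these 10, the array labelled PaS lay between the CAR arrays for 5 Hox genes, such as Hoxa2 (differences of −0.48 and 0.95) and Hoxc4 (−0.21 and 0.96). Settings changed the counts. With a pseudocount of 16, 0 Hox genes passed in each direction, as did 0 genes of the 6 related lists in each direction (against 15 higher and 4 lower), the counts at least 2-fold apart were 3 higher and 0 lower, and the Hox median was 0.10. Of all 19938 genes 0 passed there. Quantile normalization gave 4 lower Hox calls, 2 Hox genes at least 2-fold lower, 9 lower calls in the related lists and a Hox median of 0.35, and turned the Hoxd median to 0.11. Over all genes 14.2% were called lower at that setting and 9.03% were at least 2-fold lower, with a median of −0.02. Among the 20 Hox genes at or above the median level, 0 were lower by the test and 0 by 2-fold, beside 5.12% and 5.33% of all genes there. This subset favours genes high in 1 group and leaves out Hoxd11. The Hox median there was 0.54, beside 0.37 over all genes of the subset. The related lists had 23 higher and 2 lower calls, where 20.7% of all genes in the subset were higher and 5.12% lower. Higher calls in the related lists were 25 after centring and 24 with robust moderation, where 12.3% and 10.9% of all genes were higher. With 1.5-fold in place of 2-fold, 2 Hox genes were lower in both CAR arrays; with 4-fold, 0 were higher and 0 lower. With each CAR array left out in turn (values with no test, as no residual degree of freedom is left), Hox genes at least 2-fold lower numbered 1 to 2 and at least 2-fold higher 6 to 7, and the Hox median was 0.13 to 0.17. No share over all genes was computed at other folds or with 1 CAR array, so those counts stand without a background. The median of paralogs 1 to 4 was −0.052 without CAR array 2. Causes were not tested. No paired analysis was possible because the PaS group has 1 array, so that the groups share fewer than 2 replicate numbers.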

Other observations

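The probe set shared by Hoxb7 and Hoxb8, which belongs to no single gene, stood at 2.44 and 2.19 on the CAR arrays and at 2.72 on the array labelled PaS. Both CAR values were lower, as for the probe set of Hoxb7 alone, by 0.27 and 0.52 on the log2 scale. All 3 values lay below the median of all genes on their arrays. The 5th percentile of all genes was also lower on the CAR arrays, at 1.87 and 1.69 against 2.40. Its part in this difference was not tested.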
